A study of Homo sapiens with 12 samples.

Results

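Heme, the iron-containing porphyrin of cytochromes and hemoglobin, is made and broken down in nearly every cell. ALAS1 starts its synthesis in mitochondria and FECH inserts the iron that completes it. Heme oxygenases open the ring and release iron, carbon monoxide and biliverdin, and biliverdin reductases turn the last of these into bilirubin. HMOX1, the inducible heme oxygenase, is known as a target of the oxidative stress factor NRF2 and of BACH1, a repressor that lets go of DNA when it binds heme.

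The 10 genes described here were chosen by symbol for their place in heme turnover, among 59577 genes in the table. They were ALAS1, FECH, ABCB6, SLC48A1, FLVCR1, PGRMC1, HMOX1, HMOX2, BLVRA and BLVRB. The list was made with earlier results of these data known, so its counts beside those of all genes are a description only. Their RNA was measured in H1299, an established human lung cancer cell line labelled as lung adenocarcinoma, so all values come from 1 line. Of its samples, 6 were held at 60% O2, 5% CO2 and 35% N2 for 24 h (hyperoxia) and 6 at 21% O2, 5% CO2 and 74% N2 (normoxia). The labels give no time for the normoxia samples and name no further treatment for either group. Values are TPM, transcript abundances scaled for gene length and to a common total, so levels of different genes can be set side by side. The depth of each sample is unknown, since TPM keeps none. Nothing in the labels tells if the samples of a group were grown as separate cultures, and the p-values may then reflect technical spread alone. In bulk RNA, fewer cells of a type and less RNA per cell cannot be told apart. Over all genes, normoxia replicates 4 to 6 lay apart from normoxia replicates 1 to 3 on the first principal component, and calls lost without them are given beside the result.

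All 10 genes reached the minimum of a mean of 1 TPM, and all did so in each group, so none was too low to be tested. After 24 h at 60% oxygen 7 of the 10 rose, none fell and 3 did not pass the test (limma on log2(TPM + 1), Benjamini-Hochberg (BH) adjusted p under 0.05 over the 14520 genes tested). Of all genes tested, 11.7% rose and 5.63% fell, 17.3% together. At an unadjusted p under 0.05 in limma 7 of the 10 were higher and 0 lower, beside 19.7% and 10.9% of all genes. An exact rank-sum test at a BH-adjusted p under 0.05 gave 7 and 0, beside 8.29% and 3.55%. The median log2 fold change was 0.24 over the 10 genes and 0.03 over all genes tested. The rises went from 0.19 for ALAS1 to 2.09 for HMOX1 on the log2 scale, and covered both ends of synthesis, the transporters ABCB6 and SLC48A1, the heme-binding PGRMC1 and both heme oxygenases. Neither biliverdin reductase passed, nor did the transporter FLVCR1. In each of the 7 that rose, the lowest hyperoxia sample lay above the highest normoxia sample, a separation seen in 6.20% of all genes tested. Such a separation gives the smallest p the rank-sum test can reach, so it and the rank-sum count are not separate support. None of the 10 was separated in the lower direction, as 2.58% of all genes were.

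**Figure D1:**
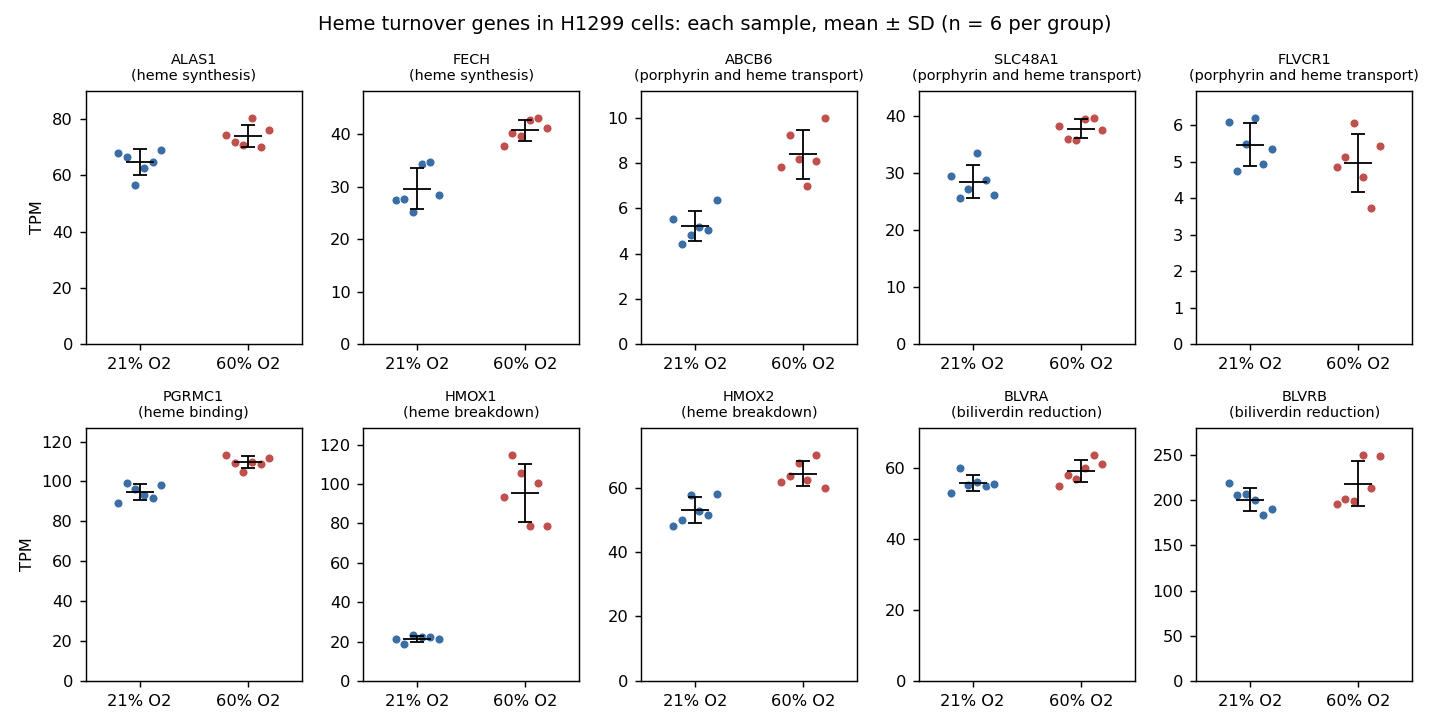
TPM of the 10 heme turnover genes in each sample (points, 6 per group), with the group mean and SD as black bars; each vertical axis starts at 0. HMOX1 lies between 18.7 and 23.1 TPM at 21% O2 and between 78.7 and 114.9 TPM at 60% O2, while the points of FLVCR1, BLVRA and BLVRB overlap between the groups.

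The stretches upstream of 3 genes that rose, ABCB6, FECH and SLC48A1, are shown because these had the largest changes after HMOX1. RefSeq promoter entries (GRCh38.p14) matched 9 of the 10 genes with 10 entries, and HMOX1 had none. Each sequence below is the 250 bases before the annotated start, 5′ to 3′ on the gene's strand. Capitals mark matches, on either strand, to TGACNNNGC, the core of the antioxidant response element that NRF2 binds, and to CACGTG, an E-box; in ABCB6 the E-box and the core overlap and form 1 run of capitals. The windows are chr2:219218959-219219208 (minus strand) for ABCB6, chr18:57586703-57586952 (minus strand) for FECH and chr12:47772988-47773237 (plus strand) for SLC48A1.
ABCB6: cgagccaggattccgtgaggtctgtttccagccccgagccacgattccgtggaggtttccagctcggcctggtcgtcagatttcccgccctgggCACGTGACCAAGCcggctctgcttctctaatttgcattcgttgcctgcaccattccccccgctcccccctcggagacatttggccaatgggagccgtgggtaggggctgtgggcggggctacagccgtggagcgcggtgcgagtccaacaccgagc
FECH: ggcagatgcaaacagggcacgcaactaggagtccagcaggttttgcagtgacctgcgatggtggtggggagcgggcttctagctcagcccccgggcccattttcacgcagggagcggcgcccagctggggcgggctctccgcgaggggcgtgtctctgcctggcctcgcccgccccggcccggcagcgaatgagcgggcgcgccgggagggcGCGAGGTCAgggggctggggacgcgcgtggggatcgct
SLC48A1: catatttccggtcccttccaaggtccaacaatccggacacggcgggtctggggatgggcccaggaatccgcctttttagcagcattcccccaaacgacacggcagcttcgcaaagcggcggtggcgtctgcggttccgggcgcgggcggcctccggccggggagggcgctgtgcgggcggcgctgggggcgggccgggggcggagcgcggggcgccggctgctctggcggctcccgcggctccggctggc

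The antioxidant response element core was present in 2 of the 10 entries, those of ABCB6 (TGACCAAGC, 152 to 144 bases before the start) and FECH (GCGAGGTCA as read on the gene's strand, 38 to 30 bases before the start). The same letters occurred in 10.9% of all 35116 promoter entries. CACGTG was found in ABCB6 and in 1 of the HMOX2 entries, and in 6.34% of all entries. TGANTCA, the AP-1 site, was in none of the 10 and in 6.57% of all. A match of letters describes the window only. The window of SLC48A1 held none of these motifs.

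Heme synthesis is represented by its first and last enzymes, and both rose. ALAS1 (ENSG00000023330), the rate-limiting 5-aminolevulinate synthase of non-erythroid cells, whose expression heme is known to repress, measured 56.5, 65.7 and 69.1 TPM (lowest, median, highest) in normoxia and 70.1, 73.2 and 80.4 TPM in hyperoxia. The groups were separated by about 1 TPM. Its log2 fold change of 0.19 (SE 0.05; limma, BH-adjusted p = 0.0196) was the smallest of the rises. Without normoxia replicates 4 to 6 it was 0.22 and its call was lost (adjusted p = 0.0688).

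FECH (ENSG00000066926), the ferrochelatase, measured 25.2, 28.1 and 34.7 TPM in normoxia and 37.8, 40.7 and 43.1 TPM in hyperoxia. Normoxia replicates 4 and 5 were its high ones, at 34.3 and 34.7 TPM, and the other 4 normoxia samples did not exceed 28.4 TPM. FECH rose by 0.46 on the log2 scale (SE 0.07; limma, BH-adjusted p = 0.0012), a mean 37.6% higher. Without normoxia replicates 4 to 6 the value was 0.59 (adjusted p = 0.000352).

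Among the transporters, ABCB6 (ENSG00000115657), a porphyrin transporter, was low but rose by more than any gene of the 10 except HMOX1. It measured 4.41, 5.10 and 6.37 TPM in normoxia and 6.98, 8.13 and 9.99 TPM in hyperoxia, with no overlap. Its log2 fold change was 0.59 (SE 0.09; limma, BH-adjusted p = 7.60e-04) on the log2(TPM + 1) scale, which understates changes at such levels, and the ratio of the means was 1.61. SLC48A1 (ENSG00000211584), also called HRG1, which moves heme out of endosomes and lysosomes into the cytosol, measured 25.6, 27.95 and 33.5 TPM in normoxia and 35.9, 37.9 and 39.6 TPM in hyperoxia. It rose by 0.40 on the log2 scale (SE 0.06; limma, BH-adjusted p = 6.63e-04). Normoxia replicate 4 was the high one of its group, and still lay below every hyperoxia sample.

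FLVCR1 (ENSG00000162769), a plasma membrane transporter known for heme and choline, was the only gene of the 10 whose mean was lower in hyperoxia. It measured 4.73, 5.41 and 6.19 TPM in normoxia and 3.74, 5.00 and 6.05 TPM in hyperoxia, and the groups overlapped over most of their range. The log2 fold change was -0.12 (95% interval -0.33 to 0.08; limma, BH-adjusted p = 0.425). PGRMC1 (ENSG00000101856), a heme-binding membrane protein that partners cytochromes P450, measured 89.35, 94.6 and 99.3 TPM in normoxia and 104.9, 109.6 and 113.4 TPM in hyperoxia. Its rise was small, 0.21 on the log2 scale, but so was its spread, at 4.14% and 2.65% of the group means (SE 0.03; limma, BH-adjusted p = 0.00105).

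Heme breakdown held the largest change. HMOX1 (ENSG00000100292) measured 18.7 TPM in the lowest normoxia sample, 21.7 at the median and 23.1 in the highest, against 78.7, 96.9 and 114.9 TPM in hyperoxia. All 6 hyperoxia samples were more than 3 times the highest normoxia sample. The group means were 21.5 ± 1.53 and 95.3 ± 14.7 TPM (SD, n = 6 each), a ratio of 4.43. The log2 fold change was 2.09 (SE 0.09, 95% interval 1.89 to 2.28; limma, BH-adjusted p = 7.27e-09). Spread among samples was wider in hyperoxia, at 15.4% of the mean against 7.13% in normoxia. In the authors' deposited table HMOX1 had a fold change of 4.56, and it was the only gene of the 10 marked there as significant, a mark held by 1.10% of the table's genes with a test. The adjusted p in the authors' deposited table was under 0.05 for all 7 genes that rose and for none of the other 3, as for 13.9% of its genes. The 6 without the mark had fold changes between 1.14 for PGRMC1 and 1.65 for ABCB6 in the authors' deposited table.

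HMOX2 (ENSG00000103415), the heme oxygenase regarded as constitutive, measured 48.2 TPM at the lowest, 52.2 at the median and 58.0 at the highest in normoxia, and 59.9, 63.0 and 70.2 TPM in hyperoxia. The groups stood close but did not overlap. HMOX2 rose by 0.27 on the log2 scale (SE 0.05; limma, BH-adjusted p = 0.00401), or 21.1% of the normoxia mean.

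The makeup of the heme oxygenase pair differed between the groups. HMOX1 was 26.9% of the summed HMOX1 and HMOX2 TPM in the lowest normoxia sample, 29.2% at the median and 30.6% at the highest. In hyperoxia it was 55.8%, 59.5% and 64.3%, so HMOX1 was the lesser transcript in every normoxia sample and the greater in every hyperoxia sample. The sum of both went from 74.5 ± 4.91 to 159.5 ± 17.2 TPM (SD, n = 6 each). These shares follow from the values above and were not tested.

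**Figure D2:**
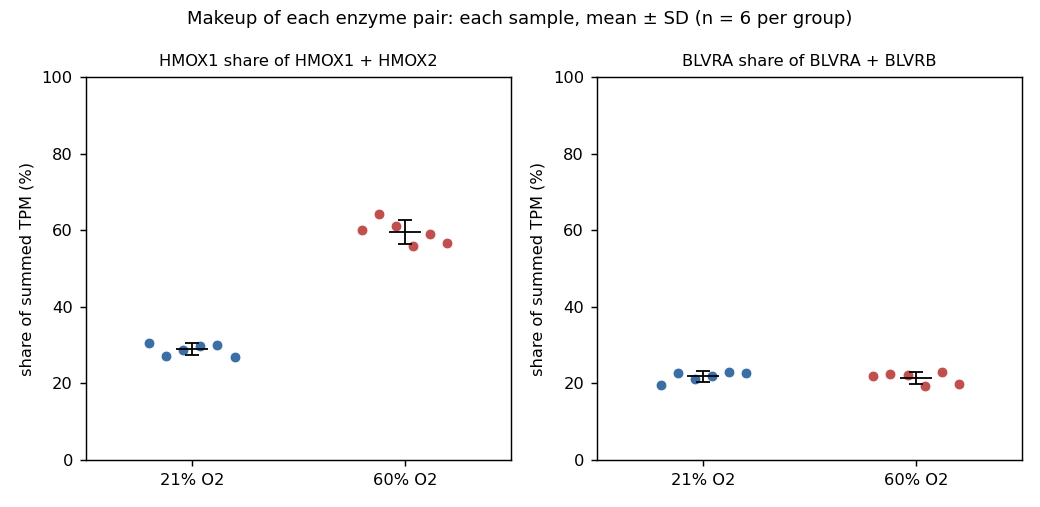
Share of HMOX1 in the summed TPM of HMOX1 and HMOX2 (left) and of BLVRA in that of BLVRA and BLVRB (right), in percent, for each sample (points) with mean and SD (n = 6 per group). The HMOX1 share averages 28.9% at 21% O2 and 59.5% at 60% O2, while the BLVRA share averages 21.8% and 21.4%.

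Biliverdin reduction, the step after heme oxygenase, showed no change that passed. BLVRA (ENSG00000106605), biliverdin reductase A, measured 52.9 TPM at the lowest, 55.4 at the median and 60.0 at the highest in normoxia, and 54.9, 59.1 and 63.8 TPM in hyperoxia, with the groups overlapping. Its log2 fold change was 0.08 (95% interval -0.01 to 0.17; limma, BH-adjusted p = 0.209). BLVRB (ENSG00000090013), biliverdin reductase B, which also reduces flavins, was the most abundant of the 10 genes in both groups. It measured 184, 202.7 and 219 TPM (lowest, median, highest) in normoxia and 196, 207 and 250.4 TPM in hyperoxia. Hyperoxia replicates 4 and 6 were the high ones, at 250.4 and 249 TPM, and the other 4 lay within the normoxia range. The same 2 replicates had the lowest HMOX1 of their group, both at 78.7 TPM. The log2 fold change of BLVRB was 0.11 (95% interval -0.03 to 0.26; limma, BH-adjusted p = 0.278). At neither gene did the interval reach the change of HMOX1. BLVRA made up 21.8% ± 1.33 of the summed reductase TPM in normoxia and 21.4% ± 1.51 in hyperoxia (SD, n = 6 each).

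Of the 10 genes, HMOX1 changed place most in the order of levels. In normoxia BLVRB was highest, followed by PGRMC1, ALAS1, BLVRA, HMOX2, FECH, SLC48A1, HMOX1, FLVCR1 and ABCB6. HMOX1 held rank 8 by mean TPM in normoxia and rank 3 in hyperoxia, where its samples overlapped those of PGRMC1 above it and those of ALAS1 below it. ALAS1, BLVRA and HMOX2 overlapped as neighbours in both groups, as did FECH and SLC48A1. ABCB6 and FLVCR1 overlapped in normoxia, whereas in hyperoxia every sample had more ABCB6 than the highest FLVCR1 value.

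A further 34 genes of the heme pathway were listed by role, of which 30 reached the minimum level. Of these, 5 rose, 1 (BACH1) was counted as lower and 24 did not pass (limma, adjusted p under 0.05), beside 11.7% and 5.63% of all genes tested. Their median log2 fold change was 0.04. The 4 left out were ALAS2, the erythroid aminolevulinate synthase, the hemoglobin-haptoglobin receptor CD163, the transporter FLVCR2 and UGT1A1, which conjugates bilirubin and was listed at 0 in all 12 samples.

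None of the 6 tested enzymes of synthesis outside ALAS1 and FECH rose or fell, none reached an unadjusted p under 0.05 in limma, and none passed the exact rank-sum test. With 17.3% of all genes called, a count of 0 among 6 is near the background and is no result about these enzymes.

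Of 10 genes of mitochondrial transport and support of synthesis 2 rose, which is near the 11.7% of all genes. SLC25A38, the carrier that brings glycine for ALAS into mitochondria, went from 21.0 ± 1.29 to 25.5 ± 0.90 TPM (SD, n = 6 each) with no overlap, and rose by 0.27 on the log2 scale (SE 0.05; limma, BH-adjusted p = 0.0016). CLPX, a mitochondrial unfoldase that acts on ALAS, went from 35.8 ± 4.51 to 44.04 ± 5.20 TPM with overlapping groups (log2 fold change 0.29, SE 0.09; limma, BH-adjusted p = 0.0431). The CLPX call was lost in 16 of 24 alternatives, among them median-of-ratios scaling (adjusted p = 0.0705) and the fit without normoxia replicates 4 to 6 (adjusted p = 0.0995). The other 8, among them the iron carriers SLC25A37 and SLC25A28, did not pass.

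Heme uptake and export outside the 10 genes showed no call among the 3 tested. With 17.3% of all genes called, no call among 3 is near the background and is no result about this role. LRP1, the receptor for heme bound to hemopexin, had the smallest p, at 9.49 ± 1.27 and 7.27 ± 1.51 TPM (SD, n = 6 each; log2 fold change -0.35; limma, BH-adjusted p = 0.0536). It passed as lower in 8 of 24 alternatives, including median-of-ratios scaling (adjusted p = 0.0251), and not in the exact rank-sum test. In the group of heme a and cytochrome c maturation 1 of 3 genes rose, beside 11.7% of all genes, too few for a result about this role. HCCS, which attaches heme to cytochrome c, rose from 30.2 ± 1.45 to 35.9 ± 3.94 TPM with overlapping groups (log2 fold change 0.24, SE 0.07; limma, BH-adjusted p = 0.0248). In the exact rank-sum test HCCS did not pass (adjusted p = 0.0559). COX10 and COX15 did not pass in limma. POR, the reductase that gives heme oxygenase its electrons, measured 70.5 ± 5.31 and 65.0 ± 4.59 TPM (log2 fold change -0.11; limma, BH-adjusted p = 0.194). It passed as lower in 3 of 24 alternatives: median-of-ratios scaling (limma, adjusted p = 0.0477), TMM scaling (0.0446) and quantile normalisation (0.0440).

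**Figure D3:**
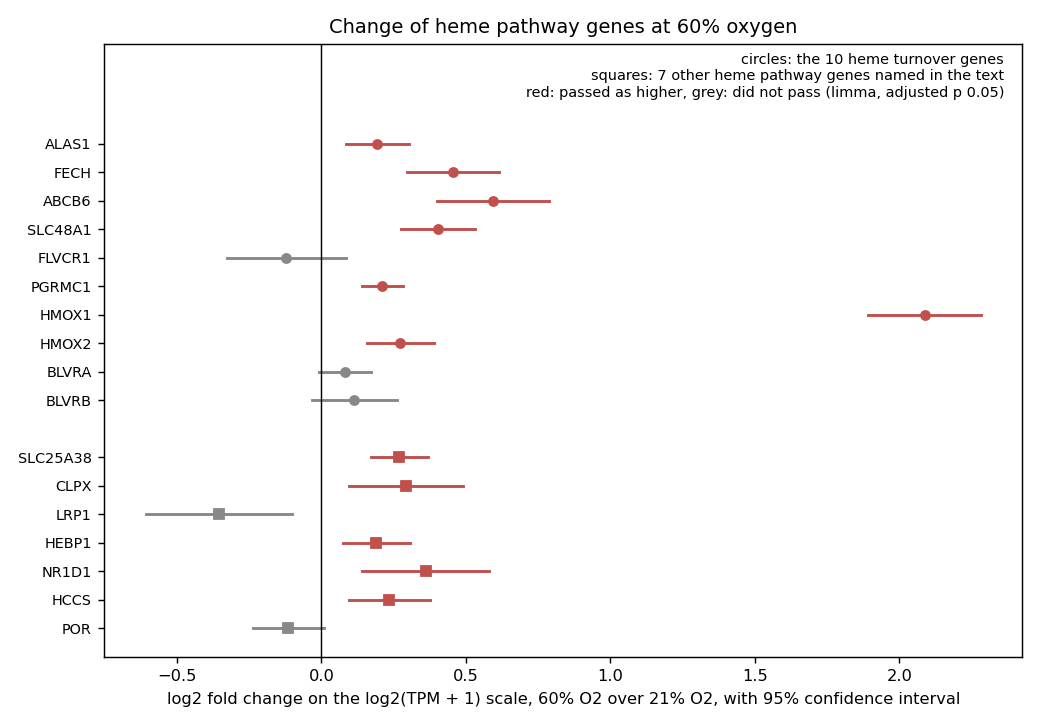
Log2 fold change (60% O2 over 21% O2, log2(TPM + 1) scale) with its 95% confidence interval for the 10 heme turnover genes (circles) and 7 other heme pathway genes, the 5 that rose, LRP1 and POR (squares); red passed as higher and grey did not pass in limma at an adjusted p of 0.05. HMOX1 stands at 2.09 and the next, ABCB6, at 0.59, while LRP1 lies at -0.35. BACH1, counted as lower from its sample columns at -1.67, is not drawn because its deposited values disagree.

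Of 7 heme-binding and heme-sensing genes 2 rose, and 1 was counted as lower from its sample columns. Beside 11.7% higher and 5.63% lower of all genes tested, such counts among 7 are near the background and no result about this role. HEBP1, a heme-binding protein of the cytosol, rose by 0.19 on the log2 scale (SE 0.05; limma, BH-adjusted p = 0.0267). NR1D1, the heme-regulated nuclear receptor REV-ERB alpha, was low, at 2.83 ± 0.49 and 3.91 ± 0.53 TPM (SD, n = 6 each), and rose by 0.36 on the log2 scale (SE 0.10; limma, BH-adjusted p = 0.0272). HCCS, HEBP1 and NR1D1 lost their calls in 5 of 24, 6 of 24 and 8 of 23 alternatives. Without normoxia replicates 4 to 6 the limma adjusted p was 0.0959 for HCCS and 0.0602 for HEBP1. PGRMC2, HEBP2, EIF2AK1 and NR1D2 did not pass.

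The gene counted as lower was BACH1 (ENSG00000156273), and its deposited values do not follow from each other. In normoxia its 6 samples lay between 19.2 and 21.3 TPM. In hyperoxia they measured 14.7, 3.52, 1.04, 2.69, 8.83 and 16.9 TPM in replicates 1 to 6, with a mean of 7.93 TPM and a spread of 83.6% of that mean. The authors' deposited table gives a hyperoxia mean of 29.6 TPM for the same gene, above its normoxia mean of 20.5 TPM, together with a fold change of 0.389, which is close to the ratio of 0.388 from the sample columns. From the columns the log2 fold change was -1.67 (SE 0.44; limma, BH-adjusted p = 0.0204), and without normoxia replicates 4 to 6 the adjusted p was 0.123. The authors' deposited log2 fold change, -1.33, is also negative, though it is not the log2 of the deposited fold change. Of these values only the deposited hyperoxia mean points up. Because the deposited values do not follow from each other, no direction is given for BACH1. Without it, 5 of 29 other heme pathway genes rose and none fell, beside 11.7% and 5.63% of all genes tested. None of the 10 heme turnover genes was among the 78 genes of the table with such a disagreement.

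**Figure D4:**
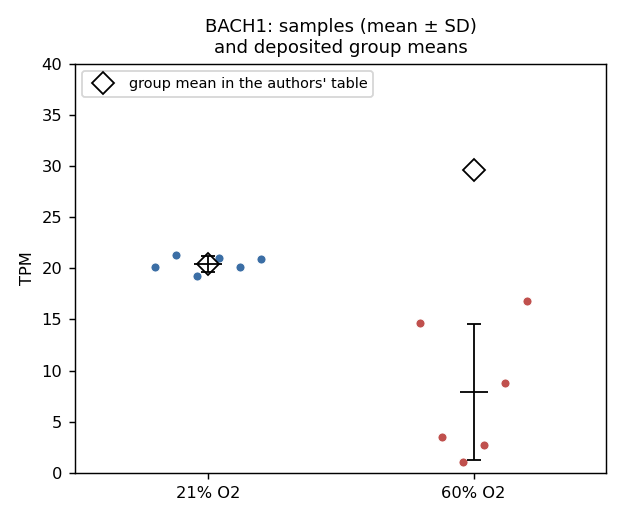
BACH1 in TPM for each sample (points) with mean and SD (n = 6 per group), and the group means in the authors' deposited table (diamonds). The diamond lies on the samples at 21% O2, and at 60% O2 it lies at 29.6 TPM, above all 6 samples, whose highest value is 16.9 TPM.

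The genes whose pattern was most like that of HMOX1 were taken by Pearson's r of log2(TPM + 1) over the 12 samples, as a description. The 5 highest were GCLM (r = 0.994), the modifier subunit of glutamate-cysteine ligase, which makes the precursor of glutathione, ATP6V1E1 (0.991), a subunit of the lysosomal proton pump, NQO1 (0.988), a quinone reductase, TFRC (0.988), the transferrin receptor, and OSGIN1 (0.987), an oxidative stress-induced growth inhibitor. All 12 samples shared 1 cell line and the groups stand apart, so such an r mostly ranks genes by how cleanly the groups separate. Within the groups, the r of the deviations from the group means was 0.73 for GCLM, 0.64 for ATP6V1E1, 0.28 for NQO1, 0.46 for TFRC and 0.27 for OSGIN1. Of the other 9 heme turnover genes, ABCB6 was closest to HMOX1 over the 12 samples (r = 0.902; 0.19 within groups) and HMOX2 was closest within groups in the positive direction (r = 0.873; 0.50 within groups). Larger values within groups were negative, at -0.72 for BLVRB and -0.65 for ALAS1, with -0.40 for PGRMC1. Among the genes with the lowest r were SRSF1 (-0.989), HIF1A (-0.987), COPG2 (-0.982) and HMGB2 (-0.979), and HIF1A is among the genes whose deposited values disagree.

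Over the whole table the samples summed to between 996138 and 998797 TPM, and 14275 to 14635 genes reached 1 TPM in a sample. Of all calls 67.5% were higher in hyperoxia, and 50.04% with median-of-ratios scaling. Checked against markers, KRT8, KRT18 and VIM exceeded 592 TPM in both group means, while the epithelial markers EPCAM, CDH1 and KRT19 stayed under 1 TPM. The 9 red cell markers summed to between 0.16 and 0.66 TPM in normoxia samples and between 0.16 and 2.20 TPM in hyperoxia samples, with HBB, HBG1 and AHSP at 0 in all 12. Of 6 macrophage markers only CD68, which many cells carry, reached 1 TPM, and their summed level ran from 40.03 to 50.6 TPM in normoxia and from 39.7 to 50.8 TPM in hyperoxia. The 4 fibroblast markers summed to at most 2 TPM in any sample.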

How the data were processed

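RNA of 12 H1299 samples was sequenced, and 1 table of genes was used. Per the labels' protocols libraries were built from Trizol RNA with Illumina's TruSeq kit, whereas the design text names another maker's directional kit with removal of ribosomal RNA, and which was used remains unclear. HTSeq 0.9.1 for counting and edgeR 3.16.5 for normalisation are named in the submitters' processing notes. For the aligner, the annotation and the TPM method, the sources used here give nothing. The notes name a mouse build although the identifiers are human, so no coordinates are taken from the authors' processing; promoter windows are those of RefSeq on GRCh38.p14. Per the file headers the per-sample values are TPM, although the table's name gives another unit. Beside them, the deposited table holds the authors' own comparison: a fold change (ratio), a log2 fold change and p-values, raw and adjusted.

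Members and lists were chosen with earlier results of these data known. All 10 members were named; other heme genes were named if they passed, or, in a role with none, for the smallest p; the 5 genes with the highest and lowest r with HMOX1 were named too. A few genes that this rule selects are not reported here. The test was limma 3.58.1 (R 4.3.3, eBayes with trend) on log2(TPM + 1), all 12 samples, genes with a mean of at least 1 TPM, two-sided, Benjamini-Hochberg adjusted over 14520 genes, threshold 0.05; it was tested on simulated data. TPM gives no depth, so no counting interval is given. Alternatives were another pseudocount, filters, scalings, variance models, a rank-sum test (exact), the replicate number as a block, and each sample left out in turn. Added after the data had been seen: fits without normoxia replicates 4 to 6 and without the 78 genes whose deposited values disagree (log2 fold change off by over 1e-06 or a group mean by over 1e-04 TPM).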

Additional observations from a re-analysis of the deposited data

How the results depend on the processing

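Of the 10 heme turnover genes, 7 rose and none fell in every alternative except the fit without normoxia replicates 4 to 6, where 6 rose. Leaving out each sample in turn gave 7 and 0, and the log2 fold change of HMOX1 ran from 2.03 to 2.14 over its 24 alternatives. The HMOX1 share of the pair differed by 29.7 to 31.4 percentage points when each sample was left out, and the BLVRA share by -0.84 to 0.04. Among the other heme pathway genes, 5 rose and 1 (BACH1, whose deposited values disagree) was counted as lower. Leaving out each sample gave 2 to 5 higher and 1 to 2 lower. With no filter 1 rose and 0 were lower, and the exact rank-sum test left 2 higher. Those lower numbered 2 with a minimum of 5 TPM and with robust estimates, 3 with median-of-ratios scaling, TMM scaling and quantile normalisation, and 0 without normoxia replicates 4 to 6 or without the disagreeing genes. Over all genes, 1698 rose and 818 fell. Those lower numbered 1277 with median-of-ratios scaling, 1275 with TMM scaling and 515 in the exact rank-sum test; without normoxia replicates 4 to 6 there were 980 higher and 374 lower. Leaving out each sample gave 1317 to 1563 higher and 602 to 937 lower. With a replicate block 1656 rose and 889 fell, and the 7 and 5 heme counts stayed the same; the numbers do not pair the samples (correlation of deviations -0.12 to 0.02), and 0 of 6 normoxia samples correlated best with their own number. The causes were not tested. Depth is unknown, so what it limits cannot be stated for ABCB6, FLVCR1 and NR1D1, which are low among the genes tested and named.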
